A study of Mus musculus with 24 samples.

Results

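The genes described here encode the machinery of autophagy and of the lysosome, measured as mRNA in the gastrocnemius muscle of mice 24 h after a scald burn or a sham procedure. They were chosen by name among protein-coding genes: ATG genes, the numbered subunits of the vacuolar proton pump (V-ATPase), the LC3 and GABARAP genes, cathepsins with a single-letter name, and Lamp1, Lamp2, Sqstm1, Ulk1, Becn1, Tfeb, Wipi1 and Gaa. Of 73 such symbols, 57 reached 10 raw counts in 3 or more of 12 libraries and were kept, out of 11837 protein-coding genes that passed the same count filter. That filter used the measured counts, so nothing below rests on which genes passed it. Just inside it was Atp6v1g2, a pump subunit best known from neurons, with at least 10 counts in 6 libraries, and just outside it was Atp6v0a4, with at least 10 counts in 1 library. The other 56 kept genes reached 10 counts in 12 of 12 libraries, and all 57 were tested.

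The animals were male C57BL6 mice of 2 ages, burned or sham-treated, which made 4 groups of 3 mice with 1 mRNA library from each mouse. The young arrived at 4 and were burned at 5 weeks of age, and the adults arrived at 10 and were burned at 11 weeks. All mice were given isoflurane and buprenorphine. Burned mice received a full-thickness scald on the back and belly, over 25% of the body surface, and lactated Ringer's solution, whereas sham mice received neither. The burn and the resuscitation therefore cannot be told apart. All values below are from whole muscle, so fewer cells of a type and less RNA per cell cannot be told apart. Total counts ran from 4392605 to 5688512 per library, and marker genes of muscle fibers (8 of 8 listed, among them Acta1, Ckm and Myh4) summed to between 80340 and 159000 CPM, counts scaled to library size, in every library.

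Young burn replicate 2 stood apart. Its log2 CPM correlated with those of the other young burn libraries at 0.936 and 0.945, while every other pair of libraries within a group reached at least 0.975, and the study's own heat map leaves out 1 young burn animal. The 57 genes took 1.068% of its counts and 0.435% to 0.702% of the counts of the other libraries. Fold changes below are from 11 libraries without it unless all 12 are named. Levels per library are given for the groups being compared, with young burn replicate 2 included.

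Autophagy encloses cytoplasm, organelles or glycogen in a double membrane and delivers them to lysosomes. The ULK1 kinase complex starts the process, a lipid kinase with beclin 1 marks the membrane, ATG9 vesicles and the ATG2 lipid channels supply lipid, and a ubiquitin-like conjugation system attaches LC3 and GABARAP proteins to the growing membrane. There they bind cargo receptors such as p62, the product of Sqstm1. In the lysosome the V-ATPase acidifies the lumen, and cathepsins and other hydrolases such as acid alpha-glucosidase digest the contents. The transcription factor TFEB activates many of these genes through a short promoter element, and in skeletal muscle the pathway is known as one of the major routes of protein breakdown during fasting, denervation and disease.

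Promoter windows are shown first because that element is carried by a group of these genes. RefSeq windows of 250 bases before to 50 bases after the start (GRCm38.p6) were found for 46 of the 57 genes, 54 windows in all, and not for Atg12, Atg16l1, Atp6v0a2, Atp6v1b2, Atp6v1c1, Atp6v1g1, Atp6v1h, Becn1, Ctsb, Ctsh and Map1lc3a. The palindrome TCACGTGA, the core of the TFEB element, was present in 6 of these 54 windows (11.1%) and in 0.974% of all 32851 promoter windows. The sequences below run in the direction of the gene with that core in capitals, and Ctsa carries it at 2 places whose flanks overlap. Coordinates span the whole printed stretch, whereas the distance from the start is that of the first base of the core in capitals.
Ctsd, chr7:142387909-142387936, minus strand, first base 99 bases before the start: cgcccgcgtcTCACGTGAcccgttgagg
Ctsa, chr2:164833750-164833777, plus strand, first base 13 bases before the start: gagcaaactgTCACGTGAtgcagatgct
Ctsa, chr2:164833767-164833794, plus strand, from base 5 after the start: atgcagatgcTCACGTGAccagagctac
Atp6v1a, chr16:44139374-44139401, minus strand, first base 132 bases before the start: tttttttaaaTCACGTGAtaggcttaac
Atp6v0d1, chr8:105566051-105566078, minus strand, first base 4 bases before the start: cctactgcggTCACGTGAgacgcggtgc
Atp6v0e, chr17:26676388-26676415, plus strand, from base 3 after the start: agcgcgccgaTCACGTGAgcctctgttg
Atg3, chr16:45158747-45158774, plus strand, first base 72 bases before the start: gagagtcgagTCACGTGAggccttaggt

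These genes encode cathepsins D and A, pump subunits of both sectors, and the conjugating enzyme ATG3. The one-sided form TCACGTG, searched on both strands and overlapping the palindrome, was in 11 of 54 windows (20.4%) against 3.77% of all windows, adding Atg14, Atg7, Atp6v0b, Gaa and Lamp1. The core of the antioxidant response element, TGACNNNGC, was in 7 of 54 windows (13.0%) against 12.4% of all, and the FoxO letters GTAAACA were in 0 of 54 against 3.65%. A match of letters is a description of the sequence, and binding was not measured. Of the 3 genes that were called higher after burn below, Ctsd held the palindrome and Sqstm1 held none of these motifs in its window. The window of Ctsl also held none and is not printed. Its RefSeq start lies within the gene as Gencode annotates it. The same holds for the printed Ctsa, Ctsd, Atp6v1a, Atp6v0e, Atg3 and Sqstm1. Of these printed genes Atp6v0e lies farthest inside, with its stretch from 26676388 in a gene that runs from 26663231 to 26699647. Ctsd and Sqstm1 are printed for the 250 bases before the start on the minus strand, with matches to TCACGTG or TGACNNNGC on either strand in capitals.
Ctsd, chr7:142387828-142388077: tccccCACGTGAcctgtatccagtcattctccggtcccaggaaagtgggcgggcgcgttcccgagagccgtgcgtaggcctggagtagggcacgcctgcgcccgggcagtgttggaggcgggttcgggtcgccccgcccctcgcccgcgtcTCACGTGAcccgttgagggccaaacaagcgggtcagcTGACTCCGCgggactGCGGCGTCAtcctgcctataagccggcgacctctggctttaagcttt
Sqstm1, chr11:50210821-50211070: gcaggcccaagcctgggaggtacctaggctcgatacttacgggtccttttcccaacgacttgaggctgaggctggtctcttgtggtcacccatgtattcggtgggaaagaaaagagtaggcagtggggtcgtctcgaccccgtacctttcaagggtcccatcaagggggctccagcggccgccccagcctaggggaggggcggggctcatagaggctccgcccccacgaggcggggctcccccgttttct

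Levels were also divided by exon length, the union of the exons of all annotated transcripts of a gene, which can exceed any single transcript. On this scale Sqstm1 had the highest mean over 11 libraries, 317 CPM per kilobase of exon. Next were Atp6v1g1, a stalk subunit of the pump, at 304, Map1lc3a (LC3A) at 197 and Ctsd (cathepsin D) at 196. This order differed between groups, and in young sham Atp6v1g1 was at 374 CPM per kilobase, above Map1lc3a at 215 and Sqstm1 at 213. The conjugation genes ran from 1.05 CPM per kilobase for Atg16l2 to 12.4 for Atg3, and the cathepsins from 3.89 for Ctso to 196 for Ctsd. The lowest level was that of Atp6v1g2, at 0.725 CPM per kilobase.

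The effect of the burn within adult muscle was asked first. Of the 57 genes, 1 was called between adult burn and adult sham, and it was Sqstm1, which rose. Calls are at an adjusted p under 0.05 in edgeR's quasi-likelihood test over all genes tested. The background of protein-coding genes was 0.926% called, or 0.572% called higher. The changes of the others were small, and 46 of the 57 had a fitted log2 fold change above 0, with a median of 0.11 against 0.00 for all protein-coding genes tested. Without adjustment, 12 of the 57 genes and 1633 of 11878 protein-coding genes had p under 0.05.

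Sqstm1 (chr11:50199366-50210827, GRCm38, minus strand) encodes p62, the receptor that binds ubiquitinated cargo and LC3. Its level was 905, 1091 and 876 CPM in the 3 adult sham libraries and 1366, 1791 and 1576 CPM in adult burn, so the groups did not overlap. The means were 957 ± 117 (SD, n = 3) and 1577 ± 213 CPM (SD, n = 3). The log2 fold change was 0.72 with SE 0.13 (edgeR adjusted p = 0.02), a ratio of 1.64. In all 12 libraries the fold change was the same size at 0.72, but the adjusted p was 0.692. The adult libraries are the same in both fits, and the spread is estimated over all groups, with young burn replicate 2 in the fit of 12. In a fit of the adult groups alone, Sqstm1 was called, as was Gabarapl1. Without any 1 of adult burn replicates 2 and 3 or adult sham replicates 1 and 3 the adjusted p passed 0.05, with a range of 0.0115 to 0.108 over the 11 libraries left out in turn.

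Other genes of the delivery and digestion steps had larger adult burn levels without passing the test. Ctsl, which encodes the protease cathepsin L (chr13:64359337-64370890, minus strand), had 187, 188 and 159 CPM in adult sham and 239, 349.9 and 255 CPM in adult burn. Its log2 fold change was 0.66 with SE 0.16 (edgeR adjusted p = 0.0718). Atp6v1h, the regulatory H subunit of the pump, had 35.9, 40.2 and 40.4 CPM in adult sham and 48.7, 66.1 and 48.7 in adult burn, which is 0.49 on the log2 scale (adjusted p = 0.0756). In both genes the lowest adult burn library was above the highest adult sham library. Groups of so few libraries can separate without a difference, and the share of all genes that did so is not given, here or below.

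The 5 genes of the ATG8 family, which coat the autophagosome membrane, had fold changes above 0 in adult burn, from 0.09 to 0.50 on the log2 scale, and 0 of the 5 were called. Gabarapl1 had 66.4, 61.4 and 62.2 CPM in adult sham and 92.0, 93.4 and 83.7 in adult burn (log2 fold change 0.50, edgeR adjusted p = 0.159). Map1lc3b, which encodes LC3B, had 179, 207 and 166 CPM in adult sham and 238, 282 and 243 in adult burn (0.46, adjusted p = 0.142). These groups also did not overlap. Of the 20 genes of initiation, nucleation, membrane supply and conjugation, 15 had a fold change above 0 and 0 were called, with a range of -0.34 to 0.41. Of the 16 pump subunits, 14 had a fold change above 0 and 0 were called.

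In young muscle, 0 of the 57 genes were called between young burn and young sham by edgeR, where the background was 0.682%. DESeq2 called 2 genes in the same 11 libraries, Ctsd and Ctss, where it called 185 of 11878 protein-coding genes. In all 12 libraries it called 6, where it called 393 of 11720. These 6 were Ctsd, Ctsl, Ctss, Lamp2 and Sqstm1, which were higher, and Atp6v1g1, which was lower. In the fit of 11 libraries the young burn group held 2. There 35 of the 57 genes had a fold change above 0, with a median of 0.05 against 0.02 for all protein-coding genes. With young burn replicate 2 included, edgeR also called 0 of the 57, against a background of 0.0683%, and 43 had a fold change above 0.

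Cathepsins came nearest to the threshold in young muscle, and 11 of 11 had a fold change above 0, with a median of 0.43 on the log2 scale. With young burn replicate 2 included, this was 10 of 11, with a median of 0.28. Ctss, the cathepsin S of antigen-presenting cells, had 14.8, 13.7 and 11.9 CPM in young sham, and 19.99, 20.9 and 36.2 CPM in young burn. Its log2 fold change was 1.06 with SE 0.24 (edgeR adjusted p = 0.0572). Ctsd (chr7:142375911-142388038, minus strand), which encodes the aspartic protease cathepsin D, had 403, 360.3 and 393 CPM in young sham and 532, 835 and 527 in young burn. Its log2 fold change was 0.47 with SE 0.11 (edgeR adjusted p = 0.0575). In both genes each of the 3 young burn libraries was above the 3 young sham libraries, young burn replicate 2 included.

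Markers of macrophages were higher in young burn than in young sham. The 12 listed genes, Adgre1, Csf1r and C1qa among them, summed to 324.6 to 447 CPM in young sham and 558, 693 and 951 CPM in young burn. In these 3 libraries Ctss had its highest level in replicate 3, Ctsd and Ctsl in replicate 2, and Ctsb and Ctsc their lowest in replicate 2. The sums were 328 to 404 CPM in adult sham and 402 to 540 CPM in adult burn, and 0 of the 12 genes was at 0 in any library. Neutrophil markers summed to 2.22 to 5.77 CPM in the sham libraries and 6.85 to 27.3 CPM in the burn libraries. Of these, S100a8, S100a9 and Csf3r were above 0 in every library and Ly6g was at 0 in 12 of 12. Cxcr2, Retnlg, Mpo and Elane were at 0 in 5, 4, 7 and 9 libraries. The part of macrophages and neutrophils in the cathepsin values was not tested.

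Sqstm1 had 790.3, 593 and 764 CPM in young sham and 936, 2426 and 1015 in young burn, so that its 3 young burn libraries were also above the sham libraries. The log2 fold change was 0.46 with SE 0.15 (edgeR adjusted p = 0.143) without replicate 2 and 1.03 with SE 0.29 (adjusted p = 0.101) in all 12 libraries. DESeq2 did not call it in 11 libraries but did in all 12 (1.04, DESeq2 adjusted p = 0.0217). Scaled by library size alone, edgeR called it in 11 libraries (0.62, edgeR adjusted p = 0.0252), where the median of all protein-coding genes was 0.171. Ulk1, the kinase that initiates autophagy, had 70.4, 41.2 and 55.4 CPM in young sham and 49.8, 89.3 and 47.4 in young burn. Its log2 fold change was -0.18 (edgeR adjusted p = 0.702) in 11 libraries and 0.16 (adjusted p = 0.734) in 12. Of the 20 genes of initiation, nucleation, membrane supply and conjugation, 9 had a fold change above 0, with a range of -0.24 to 0.52. This count was 13 in all 12 libraries, and scaling by library size alone turned it to 18 of 20. With that scaling the median was 0.138 for the 20 genes and 0.171 for all protein-coding genes, so the 20 genes did not rise above the rest.

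Both ages were then fitted together, with burn against sham tested beside age. Of the 57 genes, 3 were called, and Sqstm1, Ctsl and Ctsd were each higher after burn. The background was 2.17% called, or 1.52% called higher. The fitted change was above 0 in 48 of the 57 genes, with a median of 0.11 against 0.01 for all protein-coding genes. This fit shares its libraries with the comparisons within each age above.

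Sqstm1 rose by a log2 fold change of 0.60 with SE 0.10 (edgeR adjusted p = 0.00804), and the call remained when any 1 of the 11 libraries was left out, with adjusted p from 0.00664 to 0.0325. Ctsd, at 417, 447 and 414 CPM in adult sham and 467, 533 and 565 CPM in adult burn, rose by 0.37 with SE 0.08 (adjusted p = 0.0214). The Ctsd call was lost in 4 of 11 leave-outs, those of adult burn replicate 3, adult sham replicate 3 and young burn replicates 1 and 3, with adjusted p up to 0.087. Ctsl rose by 0.53 with SE 0.12 (edgeR adjusted p = 0.0371). Its young sham levels were 276, 191 and 191 CPM and its young burn levels 264, 882 and 296 CPM, so these groups overlapped. Its call was lost in 8 of 11 leave-outs, of any 1 library other than young burn replicate 1, adult burn replicate 1 and young sham replicate 1, with adjusted p up to 0.113. Of the exon bases of Ctsd 34.4% are shared with Gm49369 on the same strand, and of those of Ctsl 26.8% with Gm47123 and of Sqstm1 17.3% with Mrnip on the opposite strand, so that reads there cannot be given to 1 gene.

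In all 12 libraries 0 of the 57 genes were called by edgeR in this fit, against a background of 0.725%, although the 3 fold changes were larger. They were 0.87 for Sqstm1 (edgeR adjusted p = 0.0622), 0.90 for Ctsl (adjusted p = 0.101) and 0.50 for Ctsd (adjusted p = 0.0808). DESeq2 called 5 of the 57 in all 12 libraries, Ctsd, Ctsl, Gaa, Map1lc3b and Sqstm1, where it called 360 of 11720 protein-coding genes. Map1lc3b and Gaa were the next genes in 11 libraries, with log2 fold changes of 0.41 (edgeR adjusted p = 0.0508) and 0.34 (adjusted p = 0.0592). Between adult burn and adult sham, edgeR and DESeq2 each called 0 of the 57 in all 12 libraries, and the edgeR background was 0.00853%.

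**Figure D1:**
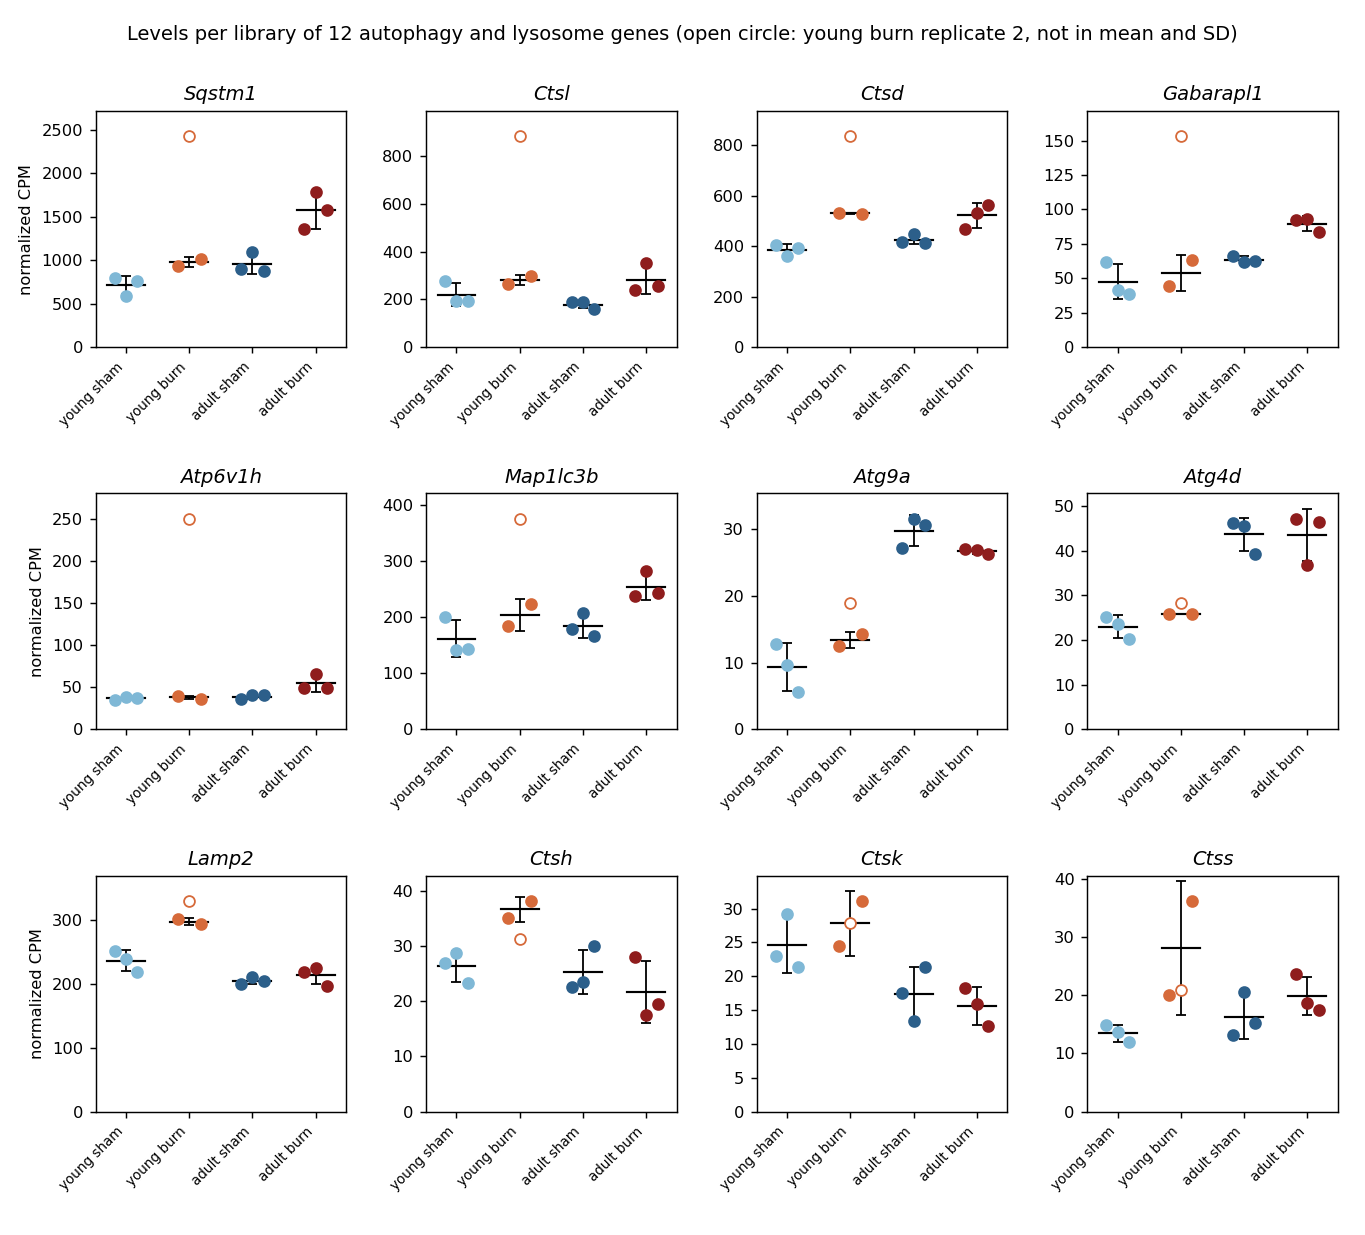
Level of 12 autophagy and lysosome genes in each of 12 libraries, in TMM-normalized CPM on linear axes that start at 0. Points are mice, the open circle is young burn replicate 2, and bars are the mean and SD of the other libraries of the group (n = 3, or 2 in young burn). The 3 adult burn libraries of Sqstm1 lie above the 3 adult sham libraries, and Atg9a and Atg4d are lower in the 6 young than in the 6 adult libraries.

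The burn effect was next compared between ages. In the burn by age interaction edgeR and DESeq2 each called 0 of the 57 genes, and the edgeR background was 0.101%. Both tools again called 0 in all 12 libraries, where the edgeR background was 0.0%. Cathepsins had the larger burn effect in young muscle in 10 of 11 genes, with a median difference of 0.29 on the log2 scale, and Ctsh, an aminopeptidase, differed by 0.71 with SE 0.25 (edgeR adjusted p = 0.338). Tfeb, whose product switches on lysosome genes, differed by -0.45 with SE 0.17 (adjusted p = 0.362). Its level was 93.7, 69.0 and 86.3 CPM in young sham, 69.6, 56.4 and 75.3 in young burn, 81.0, 79.7 and 76.8 in adult sham, and 99.0, 97.3 and 90.9 in adult burn. The adult burn libraries were above the adult sham libraries, while the young groups overlapped.

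The age difference in sham muscle was larger in number of calls. Comparing young with adult sham, edgeR called 7 of the 57 genes, against a background of 11.9% of protein-coding genes, so the share among these genes, 12.3%, was close to that of all genes. Higher in young sham were 2 genes (background 5.09%), and lower were 5 (background 6.77%). The 5 that were lower were Atg9a, Atg4d, Atg13, Gaa and Sqstm1, and the 2 that were higher were Atp6v1g1 and Map1lc3a. With all 12 libraries the calls were Atg9a, Atg4d and Atp6v1g1, against a background of 3.75%.

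Atg9a (chr1:75180860-75192196, minus strand) encodes the lipid scramblase of the vesicles that seed the membrane, and it had the largest fold change of the 57 genes in this comparison. Its level was 12.9, 9.68 and 5.59 CPM in young sham and 27.2, 31.6 and 30.7 CPM in adult sham, from 23 to 53 raw counts in young sham and 132 to 145 in adult sham. The log2 fold change was -1.67 with SE 0.19 (edgeR adjusted p = 0.000179), the groups did not overlap, and the call remained in every leave-out. Of the exon bases of Atg9a, 31.8% are shared with Gm29253 on the same strand, so reads in this stretch cannot be given to 1 gene. Atg4d (chr9:21265293-21277772, plus strand), a protease that trims and releases ATG8 proteins, had 25.2, 23.6 and 20.2 CPM in young sham and 46.2, 45.4 and 39.3 in adult sham. The log2 fold change was -0.93 with SE 0.13 (edgeR adjusted p = 0.00077), and this call also remained in every leave-out. Kri1 overlaps 19.3% of its exon bases on the opposite strand.

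The remaining calls in sham were of smaller size. Atg13, the scaffold of the ULK1 complex, had 40.0, 26.4 and 21.6 CPM in young sham and 37.3, 51.7 and 43.8 in adult sham. These ranges overlapped, with a fold change of -0.60 on the log2 scale (edgeR adjusted p = 0.041). The call remained without adult burn replicate 1, adult sham replicate 1 or young sham replicate 1 and was lost in the other 8 of 11 leave-outs, with adjusted p up to 0.181. Gaa, acid alpha-glucosidase, which degrades lysosomal glycogen and is deficient in Pompe disease, had 217, 177 and 177 CPM in young sham and 272, 282 and 242 in adult sham. Its log2 fold change was -0.49 (edgeR adjusted p = 0.016), and that of Sqstm1 was -0.43 (adjusted p = 0.0488). The Sqstm1 call remained without adult burn replicates 1 or 2 or young sham replicate 1 and was lost in the other 8 leave-outs, with adjusted p up to 0.212. Gaa was lost in 4 of 11, without adult sham replicate 1 or 2 or young sham replicate 2 or 3.

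Atp6v1g1 had 398, 391 and 484 CPM in young sham and 306, 285 and 317 in adult sham, a change of 0.48 on the log2 scale (edgeR adjusted p = 0.00987) and no call lost in 11 leave-outs. Map1lc3a had 271, 238 and 253 CPM in young sham and 195, 197 and 184 in adult sham (0.40, edgeR adjusted p = 0.0241). For both genes the groups did not overlap. The Map1lc3a call was lost without any 1 adult sham library or young sham replicates 1 or 3. Fibroblast markers (6 of 6 listed) summed to 6897 to 9019 CPM in the young libraries and 2824 to 3913 in the adult libraries, with 0 genes at 0. Over the 12 libraries the collagens ranged most, Col1a1 from 233 to 2120 CPM, Col1a2 from 380 to 2770 and Col3a1 from 373 to 3010. Dcn ran from 1590 to 2350 CPM, Lum from 70 to 203 and Pdgfra from 54.4 to 125. The part of fibroblasts in the age differences was not tested.

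Between the burned groups, 14 of the 57 genes were called, 24.6% against a background of 21.1% of protein-coding genes. Lower in young burn than in adult burn were 10 genes (background 9.89%), and higher were 4 (background 11.2%). The lower genes were Ulk1, Atg13, Atg9a, Atg2b, Atg4d, Gabarapl1, Sqstm1, Tfeb, and, of the lysosome, Atp6v1h and Gaa. The higher genes were Ctsb, Ctsh, Ctsk and Lamp2. With all 12 libraries 6 genes were called against a background of 11%. These were Atg9a, Atg4d and Tfeb, which were lower, and Ctsh, Ctsk and Lamp2, which were higher.

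Of the 20 genes of initiation, nucleation, membrane supply and conjugation, 5 were called lower and 0 higher, where 9.89% of protein-coding genes were lower. A fold change below 0 was found in 16 of the 20, with a median of -0.29, and in 15 of the 20 in all 12 libraries, with a median of -0.17. Atg9a was at 12.5, 18.9 and 14.3 CPM in young burn and 27.1, 26.9 and 26.3 in adult burn (log2 fold change -0.995 with SE 0.20, edgeR adjusted p = 0.00396). Atg4d was at 25.9, 28.4 and 25.9 CPM in young burn and 47.1, 36.8 and 46.5 in adult burn (-0.74, adjusted p = 0.00297). All 3 young burn libraries of either gene were below the adult burn libraries, and in all 12 libraries the adjusted p was 0.0284 for Atg9a and 0.00814 for Atg4d. The Atg9a call was lost in 1 of 11 leave-outs, without young burn replicate 1 (adjusted p = 0.0565).

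For Ulk1 and Atg13 the difference rested on young burn replicates 1 and 3. Ulk1 (chr5:110784488-110810097, minus strand) was at 87.4, 99.5 and 80.7 CPM in adult burn against 49.8 and 47.4 CPM in these libraries (log2 fold change -0.87, edgeR adjusted p = 0.00554). Atg13 was at 30.3 and 29.7 CPM against 47.3, 53.2 and 54.2 CPM (-0.77, adjusted p = 0.0128). In young burn replicate 2 Ulk1 was at 89.3 and Atg13 at 45.8 CPM, so that Ulk1 lay within the adult burn range and Atg13 just below it, and in all 12 libraries the adjusted p was 0.173 and 0.118. The Ulk1 call was lost without young burn replicate 3 (adjusted p = 0.0551), and the Atg13 call without young burn replicate 1 or 3. Atg2b, a lipid transfer protein, was at 13.2, 38.2 and 17.3 CPM in young burn and 20.7, 29.2 and 20.2 in adult burn. Its log2 fold change was -0.61 in 11 libraries (edgeR adjusted p = 0.0368) and -0.02 in 12 (adjusted p = 0.965).

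Sqstm1 was lower in young burn by a log2 fold change of -0.69 with SE 0.15 (edgeR adjusted p = 0.00623) in 11 libraries, and its change was -0.11 in 12 (adjusted p = 0.838). Gabarapl1 (chr6:129533160-129542346, plus strand) was at 44.6, 153 and 63.3 CPM in young burn, below the 83.7 to 93.4 CPM of adult burn except in replicate 2. Its log2 fold change was -0.73 (edgeR adjusted p = 0.0109) in 11 libraries and -0.04 (adjusted p = 0.947) in 12. Of its exon bases, 28.3% overlap 1700101I11Rik on the opposite strand. Gaa was at 215, 364 and 249 CPM in young burn and 301, 374 and 353 in adult burn (-0.56, edgeR adjusted p = 0.00984), and its adjusted p was 0.266 in 12 libraries. Each of these 3 calls was lost without young burn replicate 1, with adjusted p of 0.0732 for Sqstm1, 0.154 for Gabarapl1 and 0.121 for Gaa.

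Atp6v1h turned with 1 library. It was at 39.3, 250.3 and 36.4 CPM in young burn and 48.7, 66.1 and 48.7 in adult burn, so that young burn was lower by a log2 fold change of -0.52 (edgeR adjusted p = 0.0166) without replicate 2 and higher by 0.999 (adjusted p = 0.234) with it. Tfeb was lower in both settings, by -0.40 (edgeR adjusted p = 0.0365) and -0.51 (adjusted p = 0.0306). The Tfeb call was lost in 4 of 11 leave-outs, of adult burn replicates 1 and 2 and young burn replicates 1 and 3, and those of Atp6v1h and Atg2b in 3, of adult burn replicate 2 and young burn replicates 1 and 3.

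The 4 genes that were higher in young burn encode 3 cathepsins and a lysosomal membrane protein. Ctsk, the collagen-degrading cathepsin K of osteoclasts and fibroblasts, was at 24.5, 27.8 and 31.2 CPM in young burn and 18.2, 15.9 and 12.6 in adult burn (log2 fold change 0.83 with SE 0.20, edgeR adjusted p = 0.0105). Ctsh was at 35.2, 31.3 and 38.3 CPM against 28.1, 17.5 and 19.6 (0.76 with SE 0.18, adjusted p = 0.00962). Lamp2 (chrX:38401357-38456454, minus strand), a membrane protein needed for fusion of autophagosomes with lysosomes and mutated in Danon disease, was at 301, 329 and 293 CPM against 217, 224 and 197 (0.49 with SE 0.10, adjusted p = 0.00489). None of these groups overlapped, with all 3 young burn libraries counted. Over 11 leave-outs each lost 1 call, Ctsk and Ctsh without young burn replicate 3 and Lamp2 without replicate 1, at adjusted p of 0.122, 0.0778 and 0.0519.

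Ctsb, which encodes the abundant cysteine protease cathepsin B, was at 439.7, 365 and 520.2 CPM in young burn and 398, 347 and 327 in adult burn (log2 fold change 0.43, edgeR adjusted p = 0.0152). Its adjusted p was 0.154 in all 12 libraries, and its call was lost without young burn replicate 3 or adult burn replicate 3. Of the 11 cathepsins, 11 had a fold change above 0 in 11 libraries and 10 in 12 libraries, with medians of 0.32 and 0.28. The macrophage and fibroblast marker sums given above were also higher in young burn than in adult burn, as was the sum of 4 endothelial markers, at 304 to 378 CPM against 226 to 264, and the parts of these cells in the cathepsin values were not tested.

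The age comparisons in sham and in burn share no library. Both come from the same fit, in which all groups share an estimate of the spread, so their calls are not independent. Called in both were 5 genes, 71.4% of the calls in sham and 35.7% of the calls in burn, and Atg9a, Atg4d, Atg13, Gaa and Sqstm1 were lower in young muscle in each. Fitted on only the groups compared, Atg13 and Sqstm1 were called in burn but not in sham. Among all protein-coding genes the shared calls in the fit of 11 libraries were 58% of those in sham and 32.5% of those in burn. The sign was the same in both comparisons in 40 of the 57 genes (70.2%) and in 71.6% of all protein-coding genes. Ulk1 was at -0.38 in sham (edgeR adjusted p = 0.146) and Gabarapl1 at -0.43 (adjusted p = 0.0976). Ctsk was at 0.49 in sham (adjusted p = 0.106), whereas Ctsh was at 0.05 and Lamp2 at 0.20 without a call, and the differences between both ages' changes were not called for any of these genes in the interaction.

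**Figure D2:**
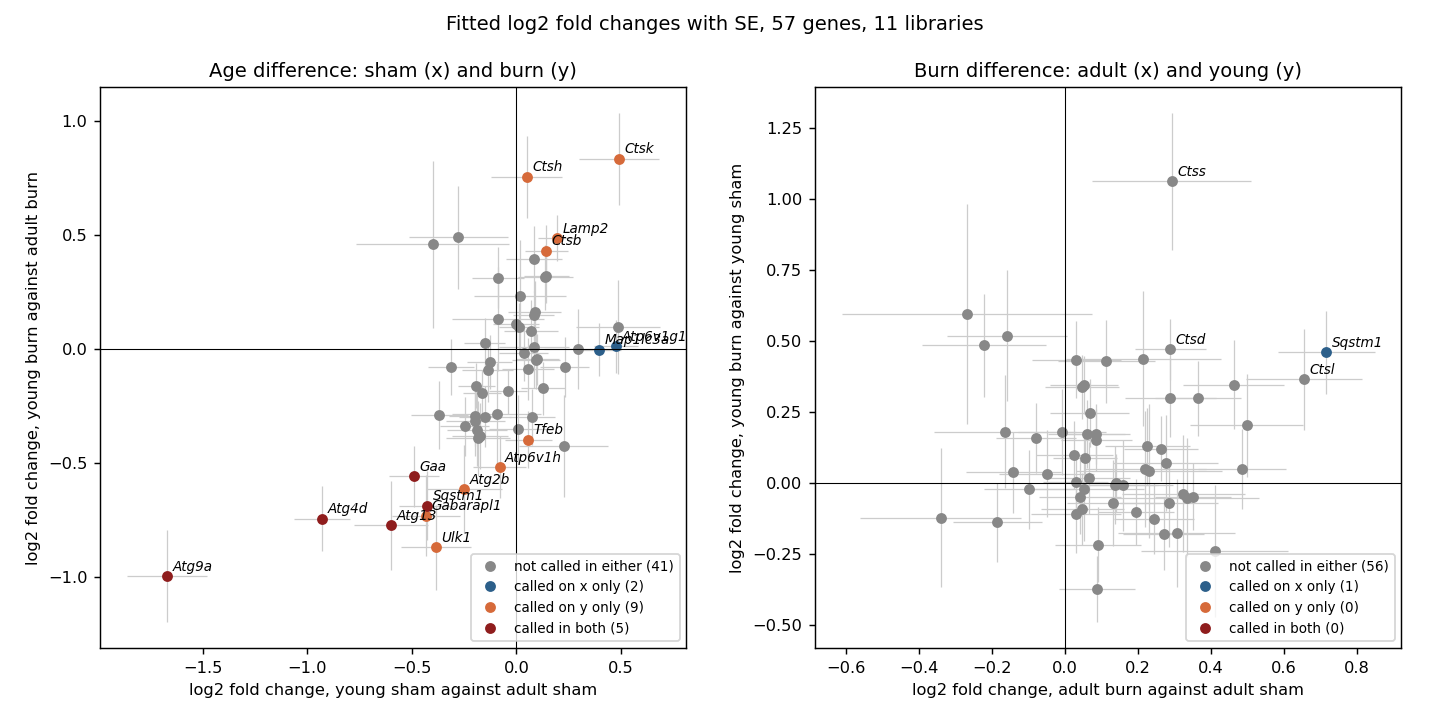
Fitted log2 fold changes with SE of 57 genes in 11 libraries, with the age differences in sham and in burn on the left and the burn differences in adult and in young muscle on the right. On the left, 5 genes are called in both comparisons and lie at lower left, with Atg9a the farthest, at -1.67 and -0.995. On the right, Sqstm1 is the 1 called gene, at 0.72 in adult and 0.46 in young muscle.

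**Figure D3:**
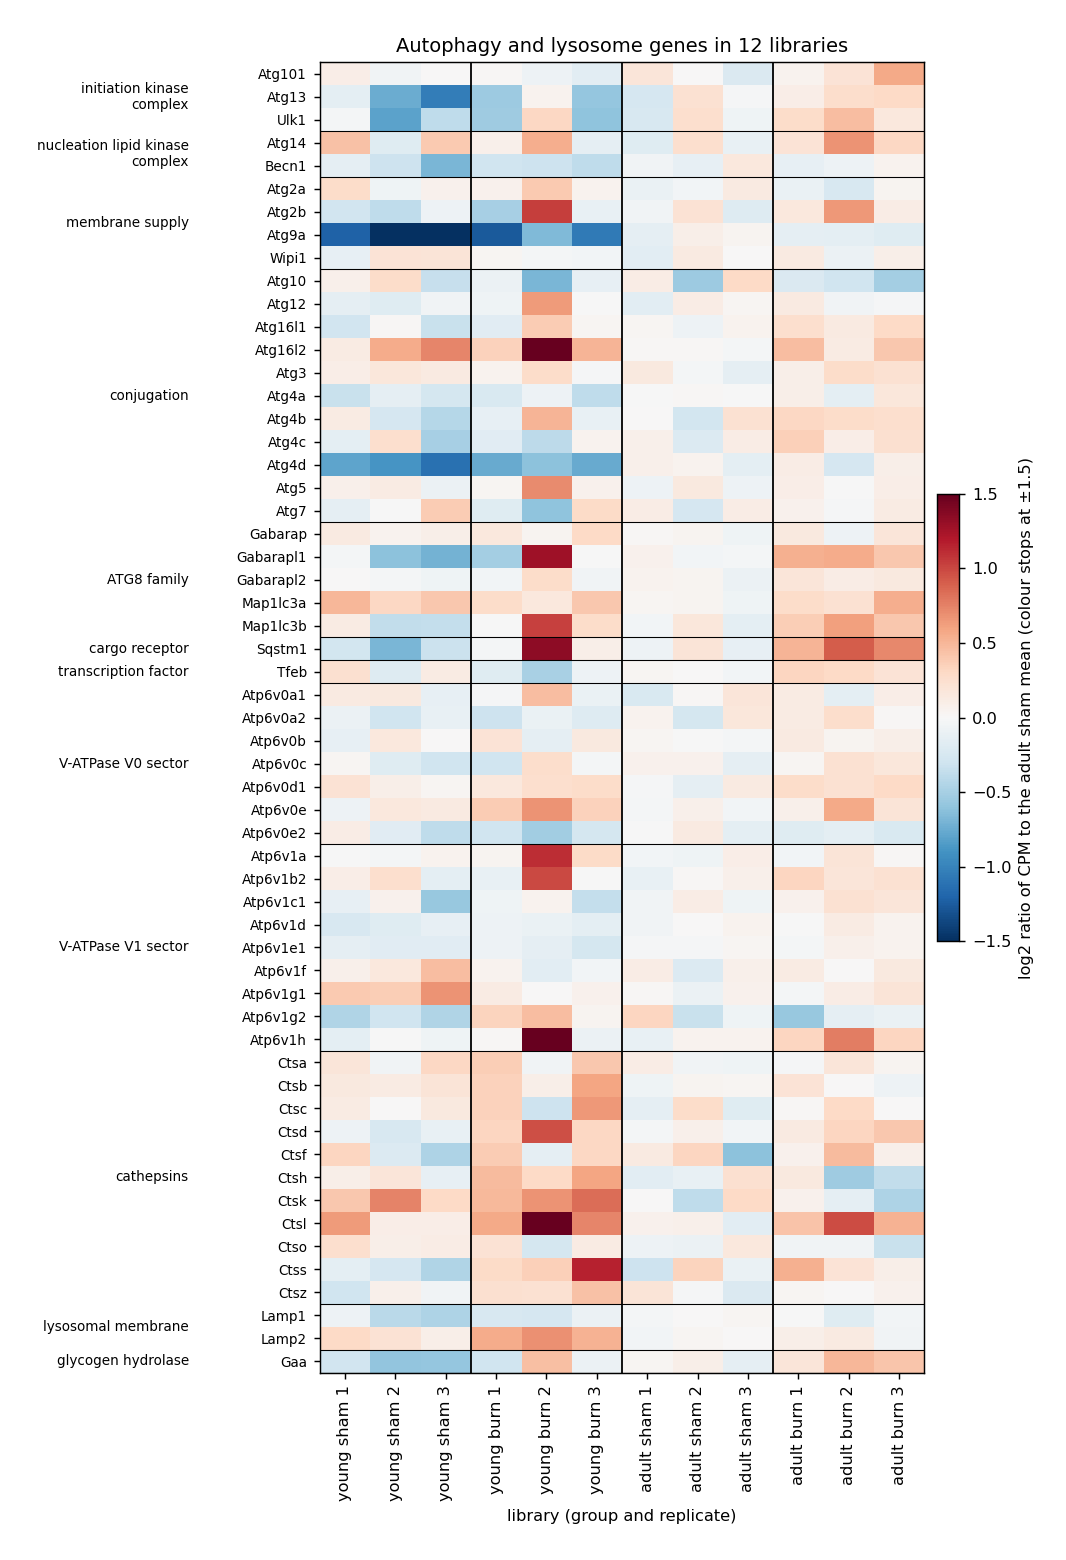
Level of 57 genes in 12 libraries as the log2 ratio of CPM to the adult sham mean, with genes grouped by role and libraries by group, and colors stopping at 1.5 in either direction. The strongest red of Atp6v1h, Ctsl and Atg16l2 is in the column of young burn replicate 2, and the rows of Atg9a and Atg4d are blue in the 6 young libraries.

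Young burn replicate 2 differed from its group in particular genes rather than in all of them. Of the 57 genes, 16 (28.1%) were over 1.5 times the mean of young burn replicates 1 and 3, while 12.9% of 11355 protein-coding genes with a mean of at least 2 CPM were. In the other 11 libraries, compared in the same way with the rest of their group, 0 to 4 of the 57 genes passed 1.5 times. Of the 11355 genes 2.24% to 6.46% did so in these libraries. For young burn replicates 1 and 3 the rest of the group includes replicate 2, which affects their ratios. The library was chosen for display because it stood apart, so these ratios are a description.

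Atp6v1h was 6.61 times as high as the mean of the other young burn libraries, Ctsl 3.15 times, Gabarapl1 2.83 times, Atg2b 2.5 times and Sqstm1 2.49 times. The pump subunits Atp6v1a, at 82.8 CPM against 39.5 and 46.8, and Atp6v1b2, at 135 against 63.2 and 68.0, were 1.92 and 2.06 times as high, whereas Atp6v1g1 was at 0.935 and Atp6v1d at 1.01 times. Map1lc3b and Ulk1 were each at 1.84 times. Among the other cathepsins, Ctsd was at 1.58 times and Ctsk at 1.001 times, while 8 were below the mean of the other young burn libraries, with Ctsc at 0.566, Ctss at 0.744 and Ctsb at 0.761 times. Muscle fiber markers were at their lowest in this library, with a sum of 80340 CPM. Its neutrophil sum of 27.3 CPM was the highest of the 12, and S100a8 alone made up 22.9 CPM of it.

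**Figure D4:**
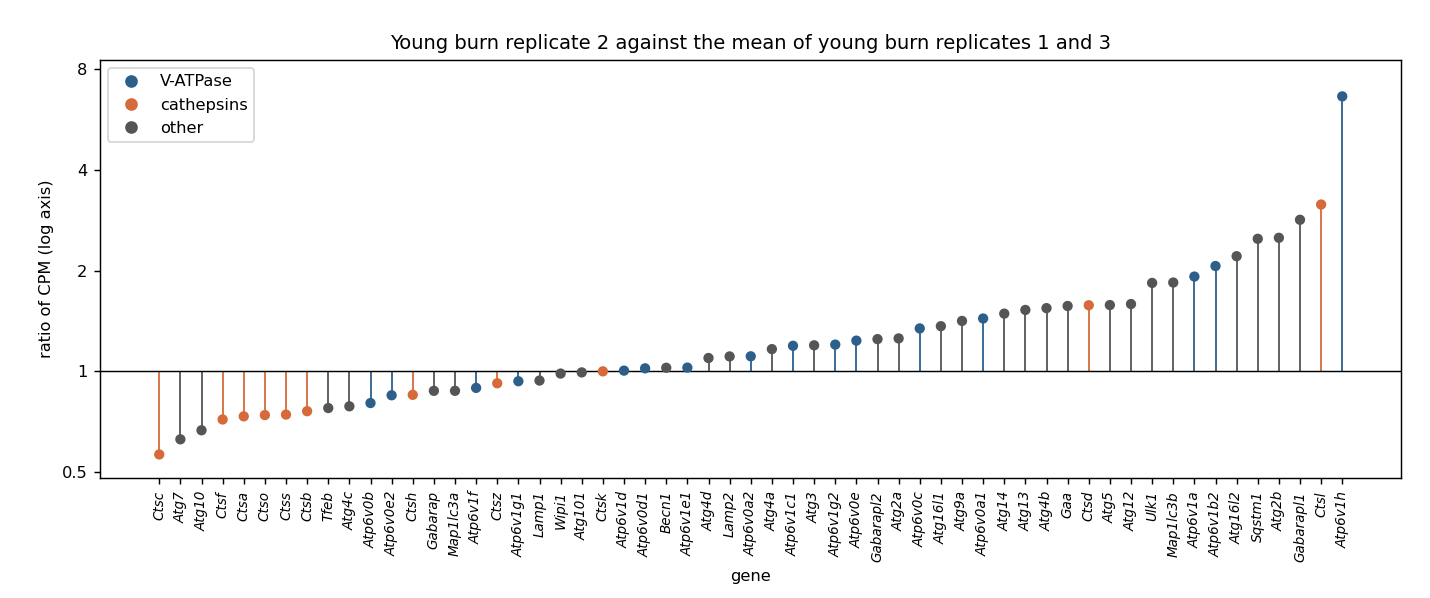
Ratio of the CPM of young burn replicate 2 to the mean of young burn replicates 1 and 3, on a log axis, for 57 genes in order of that ratio. V-ATPase genes and cathepsins are colored, and the ratios run from 0.566 for Ctsc to 6.61 for Atp6v1h, with cathepsins at 6 of the lowest 8 places.

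The wider pathway was examined in 12 lists of 166 other genes, of which 160 were tested. In the burn comparisons few passed. Between adult burn and adult sham, 2 of 160 were called in 11 libraries, both higher, and 0 were lower, which is 1.25% against 0.926% of protein-coding genes. They were Cd63, a membrane protein of late endosomes and lysosomes (211, 204 and 196 CPM in adult sham and 256, 280.1 and 275 in adult burn, log2 fold change 0.41, edgeR adjusted p = 0.0451), and Retreg1, a receptor for autophagy of the endoplasmic reticulum. Retreg1 had 394, 501 and 435 CPM in adult sham and 685, 754 and 607 in adult burn (0.62, adjusted p = 0.0487). Neither group overlapped. With all 12 libraries 0 of 159 tested were called.

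Between young burn and young sham, 1 of 160 was called, higher, which is 0.625% against 0.682% of protein-coding genes. It was Lgmn, the lysosomal protease legumain that processes cathepsins. It had 45.6, 54.1 and 42.5 CPM in young sham and 71.4, 63.3 and 89.2 in young burn (log2 fold change 0.77, edgeR adjusted p = 0.0361). Its adjusted p in all 12 libraries was 0.0686 and 0 of 159 were called, although no young burn library was as low as any young sham library. With age as a covariate, Cd63 (0.36, edgeR adjusted p = 0.0147) and the lysosomal nucleic acid transporter Sidt2 (0.41, adjusted p = 0.0457) were higher after burn. Laptm4b (-0.40, adjusted p = 0.0277) and the mTOR inhibitor Deptor (-0.40, adjusted p = 0.032) were lower, so that 4 of 160 were called, 2.5% against 2.17% of protein-coding genes. Cd63 was the 1 of these called in all 12 libraries (0.42, edgeR adjusted p = 0.0466). In the interaction 0 of 160 were called.

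By age, 8 of 160 genes were lower and 5 higher in young sham than in adult sham, 8.12% against 11.9% of protein-coding genes. In burn, 18 were lower and 12 higher, 18.8% against 21.1%. With all 12 libraries these were 3 lower and 1 higher in sham, and 12 lower and 5 higher in burn, of 159. Npc1, the cholesterol exporter of the lysosome, was lower in both, by -1.60 in sham (edgeR adjusted p = 0.000152) and -1.84 in burn (adjusted p = 6.5e-05). The autophagy receptors Optn (-0.61 and -0.95) and Retreg1 (-0.69 and -1.26) were lower in both, as was Bnip3, a receptor for mitochondria (-0.94 and -0.80), and the fusion protein Snap29 was lower in burn (-0.94). Higher in young muscle in both was Ncoa7, a partner of the V-ATPase (0.95 in sham and 1.18 in burn). Deptor (0.68 and 0.49) and the amino acid sensor Slc38a9 (0.55 and 0.59) were also higher in both, and Dnase2a (0.67) was higher in sham. In burn Lipa, lysosomal acid lipase (0.95), the glycogen receptor Stbd1 (0.95) and Lgmn (0.81) were higher. All of these passed an adjusted p of 0.05 in edgeR in 11 libraries. In 12 libraries Npc1, Optn and Ncoa7 passed in both comparisons, as did Snap29, Slc38a9, Lipa and Lgmn in burn. Retreg1 (adjusted p of 0.164 and 0.08), Bnip3 (0.111 and 0.529) and Deptor (0.0708 and 0.472) passed in neither in edgeR. The log2 fold change in burn went from -1.26 to -0.77 for Retreg1, from -0.80 to -0.32 for Bnip3 and from 0.49 to 0.24 for Deptor, and Slc38a9 in sham, Dnase2a and Stbd1 had adjusted p of 0.0591, 0.0879 and 0.0544.

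In the comparison of the burned groups, 6 of 36 lysosomal hydrolases other than cathepsins were higher in young burn and 0 lower, with a median log2 fold change of 0.23, where 11.2% of protein-coding genes were higher and 9.89% lower. With all 12 libraries 3 of 35 were higher and 0 lower. Of 13 genes of the fusion machinery, 1 was higher and 5 were lower, with a median of -0.27, and 0 and 4 in 12 libraries. Of 14 cargo receptors 1 was higher and 4 were lower, and 0 and 1 in 12 libraries. The differences between these lists were not tested.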

How the data were processed

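The authors aligned mRNA reads (NEBNext Ultra II poly-A libraries, pairs of 75 bases) with STAR (GRCm38), whose GeneCounts option gave counts for Gencode M25 genes. The submitters' processing notes name STAR 2.7.5c and bcl2fastq 2.20. The deposited values are raw counts, without normalization or filter. The sources used here do not name the strand that GeneCounts took, so reads of overlapping genes on opposite strands cannot be told apart. The miRNA libraries were not used here. Biotypes, positions and exon lengths came from Gencode M21 and promoters from RefSeq (GRCm38.p6).

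Counts were scaled by TMM and tested with edgeR 4.0.16 (R 4.3.3), as a quasi-likelihood fit of group means after filterByExpr (minimum count 10, minimum total 15). All groups share an estimate of the spread. All p-values are two-sided and were adjusted by Benjamini-Hochberg over every gene tested. Percentages of background cover the 11878 protein-coding genes tested in 11 libraries and the 11720 tested in 12. SE is the fold change divided by the square root of F. DESeq2 1.42.0, other scalings, no filter, a replicate block and leave-outs were alternatives. Counting error alone limits genes of few counts.

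The genes and lists were chosen with earlier results of these data known. Levels per library are given, in the groups compared, for each of the 57 genes called in at least 1 comparison. List genes are named where called in a burn comparison or, by age, for at most 4 changes in each direction. Replicates are separate mice.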

Additional observations from a re-analysis of the deposited data

How the results depend on the processing

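Of 25 calls of single genes in 11 libraries, 24 kept direction and call with DESeq2's size factors in edgeR, 24 with DESeq2, 25 without a filter and 22 with library size alone, and in all 12 libraries 9 did. Atp6v1h between the burned groups turned from lower to higher in all 12 libraries (log2 0.9991 in edgeR, 1.009 in DESeq2 and 0.9855 without a filter). The numbers of the 57 genes called changed as follows, in the order young against adult sham, adult burn against sham, young burn against sham, young against adult burn, and burn with age as covariate. The main counts were 7, 1, 0, 14 and 3. In all 12 libraries they were 3, 0, 0, 6 and 0. DESeq2 called 7, 2, 2, 13 and 6 in 11 libraries, and 4, 0, 6, 6 and 5 in 12. Without a filter there were 10, 5, 3, 14 and 7, and, in 12 libraries, 3, 2, 10, 10 and 9, with 1 in the interaction (Atp6v1h). Library size alone gave 11, 1, 3, 12 and 5. With it the median of all genes was -0.142 in young against adult sham, 0.171 in young burn against sham and 0.178 in the interaction, against -0.01, 0.02 and 0.01 with TMM, and with it 5 of 11 cathepsins rather than 7 were above 0 in young against adult sham. With only the groups compared, 2 were called between adult burn and adult sham, Gabarapl1 and Sqstm1. Leaving out 1 library at a time gave 3 to 10, 0 to 2, 0 to 1, 6 to 15 and 1 to 6, and 0 in the interaction. DESeq2 on 12 libraries and the unfiltered fit on 12 were chosen after seeing the data. Over all protein-coding genes the counts moved too, in the same order. They were 1409, 110, 81, 2510 and 258 at first and 440, 1, 8, 1294 and 85 in all 12 libraries. DESeq2 called 1127, 212, 185, 1866 and 382 in 11 libraries, and 630, 8, 393, 1351 and 360 in 12. Without a filter there were 1776, 522, 568, 2675 and 733, and, in 12 libraries, 921, 260, 1017, 1684 and 1083. Library size alone gave 1714, 63, 346, 1944 and 236. The cause of these changes was not tested.

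Deviations of same-numbered mice from their group means correlated weakly (r from -0.172 to 0.14). With 2 or 3 libraries in a group this cannot decide whether the numbers pair the mice, and the sources used here do not say. A replicate block gave 5, 1, 0, 13 and 2 calls, losing Atg13 and Sqstm1 in sham, Atg2b between the burned groups and Ctsd with age as covariate.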
